A study of Mus musculus with 18 samples.

Results

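The genes described are 8 markers of oligodendrocyte precursor cells, Pdgfra, Cspg4, Olig1, Olig2, Sox10, Gpr17, Neu4 and C1ql1. They were selected by gene symbol out of the 37319 genes of the deposited expression table, and all 8 had a row with a value in each of the 18 libraries. RNA-seq libraries were made from the ipsilateral cortex of adult male C57BL/6J mice aged 8 to 10 weeks. Every mouse had received an adeno-associated virus, AAV-SYN-shRNA-TIPARP or AAV-SYN-shRNA-Con, in the left lateral ventricle 4 weeks before surgery. SYN names a promoter used to restrict expression to neurons, so the hairpin against Tiparp was directed at neurons and not at oligodendrocyte precursors, and no group was free of virus. Surgery was transient occlusion of the middle cerebral artery (tMCAO), a model of ischaemic stroke with reperfusion, or a sham operation. The 6 groups of 3 libraries were R24h_T and R24h_C (24 h after tMCAO), R28d_T and R28d_C (28 d after tMCAO) and Sham_T and Sham_C, where T is the Tiparp hairpin arm and C the arm with the control hairpin. Values are FPKM, fragments normalised to transcript length and library size, so levels of different genes can be set side by side. The labels do not say that the libraries of a group are separate mice. The p-values therefore cover only the spread among these libraries, which may be technical.

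Oligodendrocyte precursor cells, also called NG2 glia, are spread through the adult cortex, divide in response to platelet-derived growth factor, and differentiate through a short committed stage into myelinating oligodendrocytes. Pdgfra encodes the receptor for that growth factor and Cspg4 encodes the NG2 proteoglycan on the cell surface. Olig1, Olig2 and Sox10 are transcription factors of the whole oligodendrocyte lineage and remain on in myelinating cells. Gpr17 is a G protein-coupled receptor of late and committed precursors, Neu4 is a sialidase that cleaves sialic acid from glycans, and C1ql1 is a secreted C1q-like protein. Outside the lineage, Cspg4 also marks pericytes and Pdgfra also marks fibroblasts of the meninges and vessel walls. In bulk tissue, fewer cells of a type and less RNA per cell cannot be told apart.

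The 250 bases before the transcription start were in the RefSeq promoter table (build GRCm38.p6) for 4 of the 8 genes, and are shown to set Neu4, which was lower at 24 h, beside members that did not pass the test. The letters searched on both strands were ACAAAG and ACAATG, 2 forms of the core bound by SOX factors, and CAGCTG and CATCTG, 2 forms of the E-box bound by basic helix-loop-helix factors such as the OLIG proteins. None of these 4 motifs overlaps another in the sequences shown, and capitals mark each match.
Neu4, chr1:94020243-94020492, + strand: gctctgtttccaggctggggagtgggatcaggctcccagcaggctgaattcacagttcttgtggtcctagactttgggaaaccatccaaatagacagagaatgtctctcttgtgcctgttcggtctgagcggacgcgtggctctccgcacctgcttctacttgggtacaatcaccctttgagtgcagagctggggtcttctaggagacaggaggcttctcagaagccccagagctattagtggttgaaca
Cspg4, chr9:56864854-56865103, + strand: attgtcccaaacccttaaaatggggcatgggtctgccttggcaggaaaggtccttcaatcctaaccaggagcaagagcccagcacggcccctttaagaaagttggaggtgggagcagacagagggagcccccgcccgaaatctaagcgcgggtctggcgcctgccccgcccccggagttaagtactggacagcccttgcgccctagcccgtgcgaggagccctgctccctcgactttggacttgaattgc
Pdgfra, chr5:75152001-75152250, + strand: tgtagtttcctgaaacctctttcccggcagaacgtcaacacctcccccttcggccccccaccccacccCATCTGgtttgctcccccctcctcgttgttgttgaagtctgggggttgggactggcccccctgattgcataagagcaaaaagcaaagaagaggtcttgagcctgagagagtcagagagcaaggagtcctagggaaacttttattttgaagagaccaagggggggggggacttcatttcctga
Olig2, chr16:91225300-91225549, + strand: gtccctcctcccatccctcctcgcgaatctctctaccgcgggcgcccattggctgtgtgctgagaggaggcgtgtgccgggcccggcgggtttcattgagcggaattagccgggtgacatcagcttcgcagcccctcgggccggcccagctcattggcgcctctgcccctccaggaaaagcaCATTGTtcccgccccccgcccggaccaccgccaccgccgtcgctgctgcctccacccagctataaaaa
The Pdgfra window held 1 CATCTG and the Olig2 window held 1 ACAATG, read on the opposite strand as CATTGT. The Neu4 and Cspg4 windows held none of the letters searched. Of 32851 promoter windows of the same length, 44.1% held at least 1 of the 4 motifs, with ACAAAG in 16.5%, ACAATG in 10.7%, CAGCTG in 13% and CATCTG in 14.4%. The GC content was 53.6% for Neu4, 60.4% for Cspg4, 54.4% for Pdgfra and 66.8% for Olig2, against a median of 52.4% over all windows.

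The deposited unit carries no read totals, so the depth of each library is unknown. Tiparp, the targeted gene, had 4.17, 4.95 and 4.57 FPKM in Sham_T and 4.45, 4.76 and 3.77 FPKM in Sham_C. It had 3.99, 5.00 and 3.01 FPKM in R24h_T, against 6.66, 4.60 and 8.65 FPKM in R24h_C. At 28 d it had 3.97, 4.06 and 3.72 FPKM in R28d_T, against 4.46, 3.59 and 3.77 FPKM in R28d_C. The Tiparp and control libraries overlapped in all 3 conditions, in tissue where the hairpin was directed at neurons alone. Some libraries stood apart. Ttr, a choroid plexus gene, was above 100 FPKM in R24h_C3, R28d_T2, Sham_T1 and Sham_T2. Infiltrating myeloid markers summed to 33.4 FPKM in R24h_T3, against 55.6 to 329.0 FPKM in the other 24 h libraries and 9.7 to 13.1 FPKM in sham. The same sum was 12.3 FPKM in R28d_C1 and 25 FPKM in R28d_T3, against 137.2 to 632.6 FPKM in the other 28 d libraries. Neuron markers summed to 870.8 to 1874.1 FPKM at 24 h, 1391.0 to 1754.0 FPKM at 28 d and 1591.9 to 1769.2 FPKM in sham. Striatal markers reached a sum of 403.5 FPKM in R24h_C3 and 335.5 FPKM in Sham_T3.

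All 8 genes were detected in every library, at levels that spanned more than an order of magnitude. In sham cortex the order of mean FPKM was Olig1, Sox10, Gpr17, Olig2, Pdgfra, C1ql1, Neu4 and Cspg4, with means of 22.4 FPKM for Olig1 and 1.52 FPKM for Cspg4. Ranges over the 6 sham libraries overlapped between Gpr17 and Olig2, between Olig2 and Pdgfra, and between Neu4 and Cspg4, while the other neighbours in that order were separate. At 24 h the order was Sox10, Olig1, Olig2, Pdgfra, Gpr17, C1ql1, Cspg4 and Neu4, and every pair of neighbours overlapped. At 28 d the order was that of sham.

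**Figure D1:**
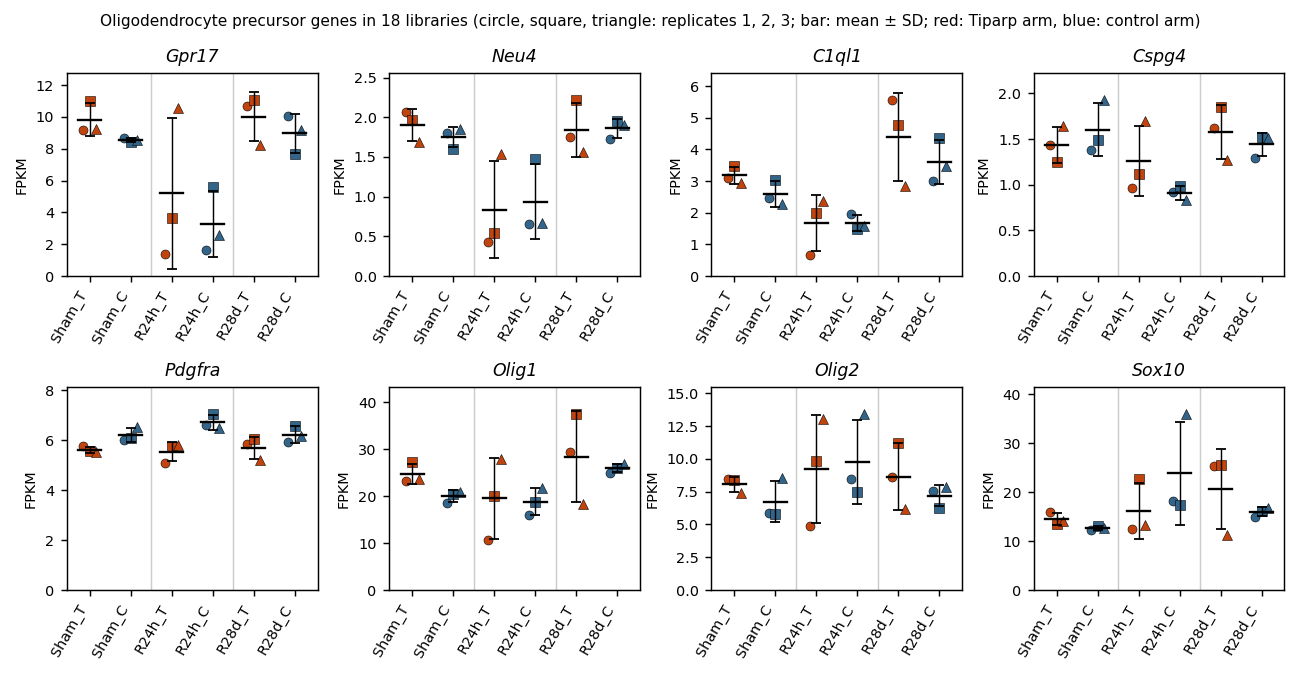
FPKM of each gene (y axis, linear from 0) in the 6 groups (x axis), with a point for each library and the mean ± SD of 3 libraries as a bar. Gpr17, Neu4 and C1ql1 are low in most 24 h libraries, with Gpr17 at 10.5 FPKM in R24h_T3 as the exception, while Pdgfra lies between 5.11 and 7.07 FPKM in all groups.

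The first question was what ischaemia did to these genes within 24 h. Over both arms (6 libraries against 6), Gpr17, Neu4 and C1ql1 fell and none of the 8 rose. Gpr17 averaged 46.2% of its sham mean, Neu4 48.5% and C1ql1 58%. Pdgfra, in contrast, averaged 103.7% of its sham mean, with an interval that spanned zero. The test was limma on log2(FPKM + 1) with the arm as a covariate and Benjamini-Hochberg adjustment at 0.05 over all 14578 genes with at least 1 FPKM in at least 3 of the 12 libraries. All 8 members passed this filter. Neu4 and Cspg4 reached 1 FPKM in 2 of the 6 libraries at 24 h and in all 6 of sham, so they were tested because of their sham level. The 3 of 8 lower stand against 5.38% of all genes tested called lower and 24.7% called in either direction, and the 0 of 8 higher against 19.3% called higher. The median difference of the 8 was -0.27, against 0.10 for all genes tested.

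Gpr17, the receptor of late and committed precursors, had 1.41, 3.67 and 10.5 FPKM in R24h_T, against 9.20, 11.0 and 9.24 FPKM in Sham_T. In the control arm it had 1.61, 5.61 and 2.60 FPKM in R24h_C, against 8.67, 8.45 and 8.52 FPKM in Sham_C. So 5 of the 6 libraries at 24 h lay below every sham library of their arm, and R24h_T3 alone was at the sham level. The difference was -1.18 ± 0.32 on the log2(FPKM + 1) scale (limma, SE, adjusted p = 0.0199), and an exact two-sided permutation test within arms gave p = 0.015. This exact permutation test has 400 labellings, and p = 0.005 is the smallest it can give. Its p-values are not adjusted over genes, unlike the adjusted limma p-values beside them. Gpr17 overlaps Lims2 on the opposite strand, and the use of strand in counting is not given in the sources used here. Lims2 had 0.683 to 3.74 FPKM over the 18 libraries, below Gpr17 in every sham library. In R24h_T1 it had 2.49 FPKM and in R24h_C1 1.91 FPKM, above Gpr17 in both.

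Neu4, the sialidase, had 0.424, 0.540 and 1.54 FPKM in R24h_T, against 2.06, 1.97 and 1.68 FPKM in Sham_T. In the control arm it had 0.661, 1.48 and 0.673 FPKM in R24h_C, against 1.80, 1.60 and 1.85 FPKM in Sham_C. The 24 h and sham libraries did not overlap, which held in this direction for 1.93% of all genes tested. The difference was -0.62 ± 0.15 (limma, SE, adjusted p = 0.0121), with an exact permutation p = 0.005.

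C1ql1, the C1q-like protein, had 0.677, 1.99 and 2.36 FPKM in R24h_T, against 3.11, 3.48 and 2.95 FPKM in Sham_T. In the control arm it had 1.97, 1.48 and 1.57 FPKM in R24h_C, against 2.47, 3.05 and 2.27 FPKM in Sham_C. Each of the 6 libraries lay below every sham library of its own arm, although the highest R24h_T value exceeded the lowest Sham_C value. The difference was -0.57 ± 0.15 (limma, SE, adjusted p = 0.0204), with an exact permutation p = 0.005. None of these 3 calls held without R24h_C3, Sham_T1 and Sham_T2, the 3 libraries of this comparison with Ttr above 100 FPKM. The differences were then -1.13 for Gpr17 (adjusted p = 0.123), -0.50 for Neu4 (adjusted p = 0.127) and -0.49 for C1ql1 (adjusted p = 0.149). Without R24h_C1 alone, Gpr17 differed by -1.04 (adjusted p = 0.0514).

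Of the surface markers, Cspg4 had 0.966, 1.12 and 1.70 FPKM in R24h_T, against 1.43, 1.25 and 1.64 FPKM in Sham_T. It had 0.915, 0.982 and 0.827 FPKM in R24h_C, against 1.38, 1.5 and 1.93 FPKM in Sham_C. All R24h_C libraries were below every Sham_C library, while R24h_T3 was above every Sham_T library. Over both arms the difference of -0.28 ± 0.11 missed the limma threshold (SE, adjusted p = 0.0688). Before adjustment it had a limma p of 0.0198 and an exact permutation p of 0.025. Without R24h_T3 it was -0.36 (adjusted p = 0.00847), which brought the count to 4 of 8. The share of all genes called in that refit is not given here.

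Pdgfra, the growth factor receptor, had 5.11, 5.71 and 5.83 FPKM in R24h_T, against 5.77, 5.58 and 5.53 FPKM in Sham_T. It had 6.60, 7.07 and 6.51 FPKM in R24h_C, against 6.02, 6.11 and 6.53 FPKM in Sham_C. The libraries of both conditions overlapped, and the difference was 0.04 with a 95% interval of -0.09 to 0.17 (limma, adjusted p = 0.648).

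The 3 transcription factors did not pass the test. Sox10 had 12.5, 22.6 and 13.3 FPKM in R24h_T, against 15.9, 13.5 and 14.1 FPKM in Sham_T. It had 18.2, 17.3 and 36.0 FPKM in R24h_C, against 12.3, 13.1 and 12.6 FPKM in Sham_C. The control arm was higher at 24 h without overlap, as were 36.1% of all genes tested in that arm, while the Tiparp arm overlapped. Over both arms the difference was 0.44 (limma, adjusted p = 0.129, exact permutation p = 0.055). Olig1 ranged from 10.7 to 27.9 FPKM with a median of 19.4 FPKM at 24 h, against 18.6 to 27.2 FPKM with a median of 22.1 FPKM in sham. Olig2 ranged from 4.85 to 13.5 FPKM with a median of 9.15 FPKM at 24 h, against 5.81 to 8.52 FPKM with a median of 7.89 FPKM in sham. Both spread more widely at 24 h and overlapped sham, with differences of -0.25 for Olig1 (95% interval -0.65 to 0.14) and 0.27 for Olig2 (95% interval -0.17 to 0.72). Without R24h_T1, Olig2 was higher by 0.45 (limma, adjusted p = 0.046).

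**Figure D2:**
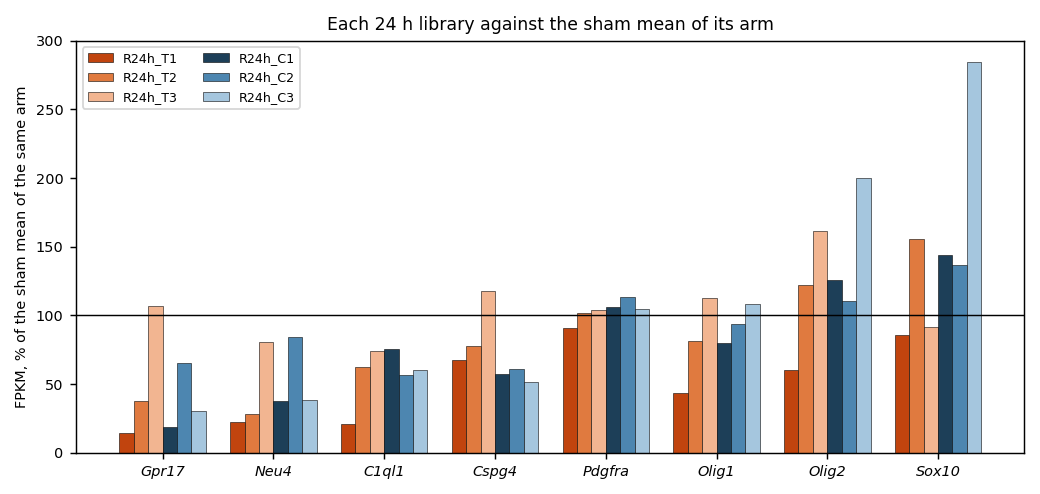
FPKM of each 24 h library as a percentage of the sham mean of its own arm (y axis, linear from 0) for each gene (x axis), with 1 bar for each of the 6 libraries and a line at 100%. R24h_T1 is below the line for all 8 genes, Gpr17 runs from 14.4% to 107.2%, and Sox10 in R24h_C3 reaches 284.5%.

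The libraries at 24 h differed more among themselves than sham libraries did. The coefficient of variation over 6 libraries was 81.2% at 24 h and 10.5% in sham for Gpr17, and 55.4% at 24 h and 9.4% in sham for Neu4. For Pdgfra it was 11.7% at 24 h and 6.4% in sham. R24h_T1 was below the sham mean of its arm for 8 of 8 genes, with Gpr17 at 14.4%, C1ql1 at 21.3% and Pdgfra at 90.8% of that mean. R24h_T3, the 24 h library with the lowest myeloid sum, had Gpr17 at 107.2%, Cspg4 at 118.0% and C1ql1 at 74.1%. R24h_C3, with Ttr at 1682 FPKM and a myelin gene sum of 1029.5 FPKM, had Sox10 at 284.5%, Olig2 at 199.9% and Gpr17 at 30.5%. The part of these features in the members' values was not tested.

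As the mean of Pdgfra moved least of the 8, the other 7 genes were also expressed relative to it within each library, a choice made after the values were seen. The ratio of Gpr17 to Pdgfra ran from 0.244 to 1.81 with a median of 0.521 at 24 h, against 1.3 to 1.98 with a median of 1.52 in sham (exact permutation p = 0.015). For Neu4 the ratio ran from 0.083 to 0.264 with a median of 0.102 at 24 h, against 0.262 to 0.358 with a median of 0.302 in sham (exact permutation p = 0.005). For C1ql1 it ran from 0.133 to 0.405 with a median of 0.270 at 24 h, against 0.348 to 0.624 with a median of 0.516 in sham (exact permutation p = 0.005). Of the remaining ratios, Cspg4 had an exact permutation p of 0.025, and Olig1, Olig2 and Sox10 had p from 0.075 to 0.305. These p-values are not adjusted over the 7 ratios, and Pdgfra is also expressed by fibroblasts, whose other markers rose at 24 h. For Gpr17, Neu4, C1ql1 and Cspg4 they equal the exact p-values of the genes alone. As Pdgfra was chosen because it moved least, the ratios restate the comparisons of single genes and give no separate support.

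Within the control arm, where 24% of 13873 genes passed and 4.23% were lower, 3 of the 8 genes fell at 24 h. They were Gpr17 with -1.27 (limma, adjusted p = 0.0312), Cspg4 with -0.44 (adjusted p = 0.0354) and C1ql1 with -0.43 (adjusted p = 0.0469). Cspg4 was under 1 FPKM in all R24h_C libraries and Neu4 in 2 of 3, so both were tested because of their Sham_C level. These 3 genes and Neu4 were below Sham_C without overlap, as were 11.8% of all genes tested. The count in this arm was 0 without Sham_C1, Sham_C2, Sham_C3 or R24h_C1 and 1 without R24h_C3. Within the Tiparp arm limma called 0 of 8 at 24 h, where 0.2% of 13501 genes passed, and 2 of 8 had an unadjusted p under 0.05. Those 2 were Neu4 with -0.71 (adjusted p = 0.236) and C1ql1 with -0.70 (adjusted p = 0.292), both without overlap, as in 8.27% of all genes tested in that direction. Neu4 was under 1 FPKM in R24h_T1 and R24h_T2 (0.424 and 0.540 FPKM), and C1ql1 in R24h_T1 (0.677 FPKM). Both were therefore tested because of their Sham_T level. C1ql1 (limma, unadjusted p = 0.0244) had rank 1126 by p among the 13501 genes. Without R24h_T3, 2 of 8 were called in the Tiparp arm, and the share of all genes called in that refit is not given here. An exact test of 3 against 3 libraries cannot go below p = 0.1. The difference between the arms' 24 h responses was itself tested as an interaction, and limma called 0 of 8, with 0 at an unadjusted p under 0.05 and 0% of all genes called. The interaction was 0.18 for Gpr17 (95% interval -1.25 to 1.61) and -0.69 for Sox10 (95% interval -1.5 to 0.13), so large differences between arms lie within the intervals.

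The later time point asked whether these changes lasted. At 28 d limma called 0 of the 8 against sham over both arms, with 0.00703% of 14234 genes called. At an unadjusted p under 0.05 there were 2 of 8, and the exact permutation test gave p under 0.05 for 0 of 8. The weaker of those 2, Sox10 (limma, unadjusted p = 0.046), had rank 2350 by p among the 14234 genes, so many genes reached that level. Gpr17 had 10.7, 11.1 and 8.24 FPKM in R28d_T and 10.1, 7.66 and 9.19 FPKM in R28d_C. Its difference from sham was 0.04, with a 95% interval of -0.14 to 0.21. Neu4 had 1.75, 2.22 and 1.56 FPKM in R28d_T and 1.73, 1.96 and 1.90 FPKM in R28d_C, and its difference of 0.01 had an interval of -0.14 to 0.16. The 28 d libraries of both genes overlapped those of sham.

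C1ql1 at 28 d had 5.57, 4.77 and 2.86 FPKM in R28d_T, against 3.11, 3.48 and 2.95 FPKM in Sham_T. It had 2.99, 4.37 and 3.47 FPKM in R28d_C, against 2.47, 3.05 and 2.27 FPKM in Sham_C. Its mean was 138.7% of sham with overlapping libraries, and the difference of 0.34 had a 95% interval of 0.08 to 0.61 (limma, adjusted p = 0.189, exact permutation p = 0.05). Sox10 averaged 18.3 ± 5.81 FPKM at 28 d and 13.6 ± 1.3 FPKM in sham (SD, n = 6 each), a difference of 0.36 (limma, adjusted p = 0.279). Olig1 averaged 27.2 ± 6.32 FPKM at 28 d and 22.4 ± 3.01 FPKM in sham (SD, n = 6 each), a difference of 0.25 (limma, adjusted p = 0.369). R28d_T3 was below the sham mean of its arm for all 8 genes and had a myeloid sum of 25 FPKM. Without it, C1ql1 (0.45, adjusted p = 0.0242), Sox10 (0.52, adjusted p = 0.0199) and Olig1 (0.38, adjusted p = 0.0199) passed the limma test, together with 1150 genes in all. With R28d_T3 in the fit, 1 of 14234 genes passed. Pdgfra, Cspg4 and Olig2 differed from sham at 28 d by 0.01, -0.01 and 0.08. In the arms taken singly limma called 0 of 8 at 28 d. The control arm had 3 of 8 at an unadjusted p under 0.05, with 0.0522% of all genes called. The weakest of those 3, C1ql1 (limma, unadjusted p = 0.0337), had rank 1110 by p among 13413 genes. The Tiparp arm had 0 of 8 at an unadjusted p under 0.05, with 0.00739% of all genes called. Without R28d_T3, 2 of 8 were called in the Tiparp arm, and the share of all genes called in that refit is not given here. In the interaction at 28 d, limma called 0 of 8, with 0 at an unadjusted p under 0.05 and 0.00703% of all genes called.

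Set against 24 h, which uses the same 24 h libraries as the comparison with sham, C1ql1 and Neu4 were higher at 28 d. These 2 of 8 stand beside 1.48% of 14745 genes called higher and 2.98% called in either direction. C1ql1 averaged 4.01 ± 1.08 FPKM at 28 d and 1.67 ± 0.583 FPKM at 24 h (SD, n = 6 each), a difference of 0.91 ± 0.18 (limma, SE, adjusted p = 0.0321). Neu4 averaged 1.85 ± 0.228 FPKM at 28 d and 0.886 ± 0.491 FPKM at 24 h (SD, n = 6 each), a difference of 0.63 ± 0.15 (limma, SE, adjusted p = 0.0481). Neither gene's 28 d and 24 h libraries overlapped, as in 1.44% of genes tested in that direction, and both had an exact permutation p = 0.005. Gpr17 averaged 9.49 ± 1.36 FPKM at 28 d and 4.24 ± 3.44 FPKM at 24 h (SD, n = 6 each). Its difference of 1.22 missed the limma threshold (adjusted p = 0.062). Before adjustment its limma p was 0.00273 and its exact permutation p was 0.01. Without R24h_T3 the Gpr17 difference was 1.49 (adjusted p = 0.00489). The remaining differences were 0.28 for Cspg4, 0.50 for Olig1, -0.19 for Olig2, -0.08 for Sox10 and -0.03 for Pdgfra, none past the threshold. Neu4 reached 1 FPKM in 2 of the 6 libraries at 24 h and in all 6 at 28 d, so it was tested here because of its 28 d level. Without R24h_C3 and R28d_T2, the 2 libraries of this comparison with Ttr above 100 FPKM, the differences were 0.86 for C1ql1 (adjusted p = 0.107) and 0.54 for Neu4 (adjusted p = 0.153), and neither passed. With a single library left out, the count of members called was 0 without R24h_C1, R24h_C2, R24h_T2, R28d_C1, R28d_C2, R28d_C3 or R28d_T2, 1 without R24h_C3, R24h_T1, R28d_T1 or R28d_T3, and 4 without R24h_T3. The shares of all genes called in these refits are not given here.

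**Figure D3:**
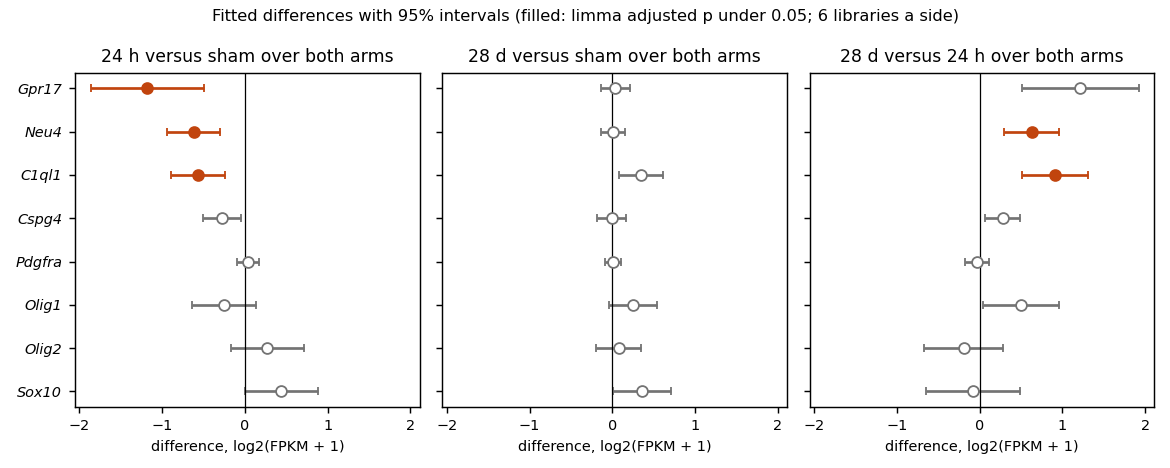
Fitted difference in log2(FPKM + 1) (x axis, with 95% intervals) for each gene in the 3 comparisons over both arms, 6 libraries a side, filled where the limma adjusted p is under 0.05. Gpr17, Neu4 and C1ql1 lie left of zero at 24 h, all 8 genes are unfilled at 28 d against sham, and C1ql1 and Neu4 are filled on the right at 28 d against 24 h.

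The hairpin against Tiparp, whose target was not separated between arms in these libraries, was the other axis of the design. Between the arms limma called 0 of 8 members in sham (2 at an unadjusted p under 0.05, 0.21% of genes called), 0 of the 6 that passed the filter at 24 h (0 at an unadjusted p under 0.05, 0% called) and 0 of 8 at 28 d (0 at an unadjusted p under 0.05, 0% called). The weaker of the 2 in sham, Sox10 (limma, unadjusted p = 0.0414), had rank 1497 by p among 13342 genes. In sham, Olig1, Sox10 and Gpr17 were higher in the Tiparp arm without overlap, by 0.29, 0.18 and 0.18, as in 10.6% of genes tested in that direction. Pdgfra was lower in the Tiparp arm without overlap in sham, by a difference of -0.12 (8.85% of genes), and at 24 h, by a difference of -0.24 (8.79% of genes). Over all 3 conditions, a comparison added after these values were seen, Pdgfra averaged 5.63 ± 0.310 FPKM in the Tiparp arm and 6.39 ± 0.366 FPKM in the control arm (SD, n = 9 each). The difference was -0.16, with a 95% interval of -0.25 to -0.06 and an exact permutation p of 0.0005 within conditions. It did not pass the adjustment over 14973 genes (limma, adjusted p = 1.0, rank 8 by p), and 0% of genes were called. The other 7 genes had exact permutation p-values from 0.362 to 0.927 in that comparison.

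The wider set of precursor-stage genes was described by a list of 16 other genes, of which 14 were tested at 24 h. Of these, 4 fell and none rose, where 5.38% of all genes tested were called lower and 19.3% higher. Bcan, the proteoglycan brevican, averaged 26.7 ± 5.71 FPKM at 24 h and 41.5 ± 1.54 FPKM in sham (SD, n = 6 each), a difference of -0.64 (limma, adjusted p = 0.00285). The matrix protein gene Matn4 differed by -0.28 (adjusted p = 0.020) and Rlbp1, a retinoid-binding protein, by -0.55 (adjusted p = 0.0273). Matn4 reached 1 FPKM in under 3 libraries at 24 h and was at least 1.31 FPKM in every sham library. It was therefore tested because of its sham level. The median of the 14 was -0.15. Bcan is expressed in astrocytes as well. At 28 d none of 13 tested genes of this list passed against sham (4 at an unadjusted p under 0.05). Among all 14234 genes of that comparison, rank 2350 by p had an unadjusted limma p of 0.046. Against 24 h, 4 of 14 were higher at 28 d (1.48% of all genes), a comparison that uses the same 24 h libraries. At 24 h, 1 of these 4 reached 1 FPKM in under 3 libraries and was tested because of its 28 d level. Among them were Bcan by 0.73 (adjusted p = 0.0191), Rlbp1 by 0.70 and Matn4 by 0.68.

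Among genes of later stages, the shares that rose at 24 h lay near the 19.3% of all genes tested. Of 10 tested genes of committed precursors and newly formed oligodendrocytes, 2 rose and none fell. Bmp4, a secreted signal made by committed precursors, averaged 1.90 ± 0.572 FPKM at 24 h and 0.824 ± 0.134 FPKM in sham (SD, n = 6 each), a difference of 0.65 (limma, adjusted p = 0.0033). Bmp4 was under 1 FPKM in every sham library and was tested because of its 24 h level. Tmem2 (0.30, adjusted p = 0.0367) was the other. Of 16 genes of mature oligodendrocytes and myelin, 3 rose and 1 fell. Trf, the iron carrier transferrin, averaged 79.2 ± 47.5 FPKM at 24 h and 24.6 ± 8.62 FPKM in sham (SD, n = 6 each), a difference of 1.45 (adjusted p = 0.030). Cldn11, a tight junction protein of myelin, differed by 0.84 (adjusted p = 0.0221) and Myrf, the transcription factor for myelin genes, by 0.63 (adjusted p = 0.0251). Aspa, the enzyme that cleaves N-acetylaspartate, fell by 0.34 (adjusted p = 0.0441). Aspa reached 1 FPKM in under 3 libraries at 24 h and was tested because of its sham level. The medians were 0.10 for the committed list and -0.04 for the mature list. By arm, the mature list had a median of -0.40 with 0 of 16 called in the Tiparp arm (6 at an unadjusted p under 0.05), and a median of 0.56 with 4 of 15 called higher in the control arm. Of all genes tested, 0.2% were called in the Tiparp arm and 24% in the control arm, in either direction. In the Tiparp arm, rank 1126 by p of 13501 genes had an unadjusted limma p of 0.0244. The difference between arms was not tested for the list. The arms also differed in sham, where the list had a median of 0.35 for the Tiparp against the control arm. There 1 of 16 was called higher, which was Trf, with 0.21% of all genes called, and 9 had an unadjusted p under 0.05. In that sham comparison, rank 1497 by p among 13342 genes had an unadjusted limma p of 0.0414. The summed FPKM of the mature list was 391.0, 741.0 and 460.3 in R24h_T, against 647.4, 756.3 and 566.5 in Sham_T. In the control arm it was 512.5, 675.3 and 1029.5 in R24h_C, against 469.4, 545.9 and 574.9 in Sham_C.

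Of 23 signals and receptors known to act on precursors, 5 rose and 2 fell at 24 h, shares near the 19.3% and 5.38% of all genes tested. Of the 5 that rose, 3 reached 1 FPKM in under 3 sham libraries and were tested because of their 24 h level. Id4, an inhibitor of basic helix-loop-helix factors, averaged 8.10 ± 2.48 FPKM at 24 h and 14.4 ± 0.929 FPKM in sham (SD, n = 6 each), a difference of -0.80 (limma, adjusted p = 0.00428). The related Id2 was higher by 0.48 (adjusted p = 0.00647), as were the cytokine Cntf by 0.64 (adjusted p = 0.00655) and the receptor Notch1 by 0.47 (adjusted p = 0.0124). Cntf was under 1 FPKM in every sham library, with a highest value of 0.512 FPKM there. At 28 d against 24 h, Id4 was higher by 1.12 (adjusted p = 0.020), Bmpr1b, a BMP receptor, was higher by 0.39 (adjusted p = 0.0344) and Id2 was lower by a difference of -0.40 (adjusted p = 0.0405). Only 5 of 16 cell cycle genes reached the filter at 24 h, and 4 of them rose, 1 of which was tested because of its 24 h level. Ccnd1, the cyclin of the G1 phase, averaged 13.5 ± 5.53 FPKM at 24 h and 5.72 ± 0.491 FPKM in sham (SD, n = 6 each), a difference of 1.02 (adjusted p = 0.00464). All cell types of the tissue can express these genes.

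Markers of the other cells that express Cspg4 and Pdgfra rose at 24 h. A gene under 1 FPKM in sham could be tested only if high at 24 h, which raises the counts of tested markers that rose. Of 12 tested pericyte and mural markers, 10 rose, including 5 that reached 1 FPKM in under 3 sham libraries, and their summed level was 48.0 to 71.2 FPKM at 24 h, against 28.2 to 39.4 FPKM in sham. Pdgfrb, the receptor that defines mural cells, averaged 7.87 ± 2.34 FPKM at 24 h and 3.86 ± 0.487 FPKM in sham (SD, n = 6 each), a difference of 0.83 (limma, adjusted p = 0.00287). Of 9 tested fibroblast and meningeal markers, 7 rose, including 3 of that kind, and their sum was 29.9 to 119.0 FPKM at 24 h, against 11.6 to 24.6 FPKM in sham. Col1a1, a collagen chain of fibroblasts, averaged 2.11 ± 0.737 FPKM at 24 h and 0.564 ± 0.16 FPKM in sham (SD, n = 6 each), a difference of 0.97 (adjusted p = 0.000973). Col1a1 was itself under 1 FPKM in every sham library. Cspg4 was thus lower in 5 of 6 libraries, and Pdgfra near its sham level, in tissue where these other sources had higher marker levels. Their part in the Cspg4 and Pdgfra values was not tested. Among lists of other cells at 24 h, 7 of 9 tested endothelial markers and 6 of 6 tested infiltrating myeloid markers rose, 3 of them in each list tested because of their 24 h level. The lists held 10 genes each. The counts at 24 h stand beside 19.3% of all genes tested called higher and 5.38% called lower. Of 13 astrocyte markers 3 rose and 1 fell, of 12 neuron markers 1 rose and 1 fell, and of 10 microglia markers 2 rose and 3 fell. At 24 h, 1 microglia and 2 striatal markers reached 1 FPKM in under 3 libraries and were tested because of their sham level. Of 10 striatal markers 1 fell, and of 6 choroid plexus markers limma called 0, with 1 at an unadjusted p under 0.05. At 28 d against sham, none of the genes of any list passed. The fibroblast list had 9 of 9 at an unadjusted p under 0.05 and the pericyte list 8 of 10. Of those tested, 3 fibroblast and 4 pericyte markers reached 1 FPKM in under 3 sham libraries and were tested because of their 28 d level. Among all 14234 genes of that comparison, rank 2350 by p had an unadjusted limma p of 0.046.

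**Figure D4:**
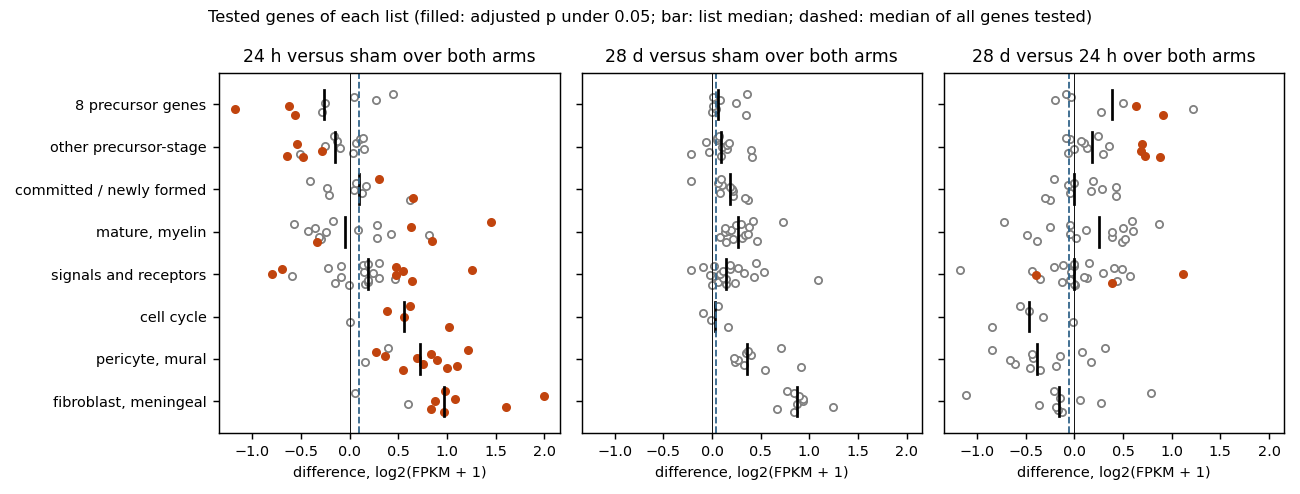
Difference in log2(FPKM + 1) (x axis) of every tested gene of 8 lists (rows) in the 3 comparisons over both arms, filled where the limma adjusted p is under 0.05, with the list median as a bar and the median of all genes tested as a dashed line. At 24 h the 8 precursor genes have a median of -0.27, while the pericyte and fibroblast lists have medians of 0.72 and 0.97.

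Over the 18 libraries the gene most like each member was found from standardised log2(FPKM + 1) profiles, by the root mean square difference, where 0 means the same profile. Among the members, Gpr17 and Neu4 were the closest pair at 0.371. For Gpr17 the nearest of 14973 genes were Gm25117 at 0.308 and Gm15440 at 0.359, and for Neu4 they were Kctd4 at 0.329 and Gm25117 at 0.351. C1ql1 lay nearest to Fam161b at 0.367 and Pygb at 0.383, and Cspg4 to Gm15440 at 0.504 and Pygo1 at 0.534. The genes nearest to Olig1 were Cmtm5 at 0.386 and Gjc3 at 0.397, and those nearest to Sox10 were Gltp at 0.292 and Prr5l at 0.350. Olig2 was nearest to Timmdc1 at 0.579 and Tsfm at 0.614. Pdgfra had the most distant nearest genes of the 8, with Adam10 at 0.705 and Nr2f2 at 0.731. The libraries share their conditions, so likeness includes any common response to them.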

How the data were processed

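Values were FPKM per gene for 18 poly(A)-selected, strand-marked libraries read in pairs, deposited as 1 table. The labels name more than 1 model of sequencer, and any part of this in the values was not tested. Per the submitters' processing notes the authors used HISAT, StringTie and edgeR with genome build mm9, and versions are not given in the sources used here. Of 37319 rows, 62 symbols were repeated and the row with the higher mean was kept, which left 37257. The gene identifiers matched GENCODE M21 for 99.8%, used only to find overlapping genes.

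log2(FPKM + 1) was tested two-sided in R 4.3.3 with the moderated linear models of limma 3.58.1, using a mean-variance trend, on the libraries compared, with the arm as covariate over both arms. A gene entered a fit if 3 or more of its libraries had 1 FPKM or more, and p was adjusted over all of them by Benjamini and Hochberg at 0.05. Adding 1 shrinks the log2 difference of a low gene below its log2 ratio. Single genes also had exact permutation tests within arms (400 labellings), whose p-values were not adjusted. FPKM gives no depth, so no counting interval was possible.

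The members and lists were chosen with earlier results of these data known. From each other list, up to 4 genes with the smallest adjusted p were named, and the 2 genes most like each member. The values of 1 gene of these lists are not reported here. Fits were tested on simulated data. Results were recomputed with each library left out, without libraries with Ttr above 100 FPKM, with all 18 libraries in 1 fit, with a replicate block, with median-ratio scaling, without the filter, and with a pseudocount of 0.1. The comparison of arms over 3 conditions and the ratios to Pdgfra were added after the data were seen. Figures used Python 3.11.15, pandas 2.3.3, numpy 2.4.6 and matplotlib 3.10.9.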

Additional observations from a re-analysis of the deposited data

How the results depend on the processing

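FPKM carries no read totals, so depth cannot be weighed, and low genes such as Neu4 and Cspg4 lose size to the pseudocount. Of 197 recomputed counts of members called, 167 stayed within 1.5 times, or at 0 where the main fit called 0, and 30 moved. Most comparisons called 0 members, so the 167 do not measure how stable the calls were. The share of all genes called in each recomputed fit is not given here, so a moved count is not a result about the members alone. Of 489 recomputed member values, 408 kept direction and side of the threshold, 53 lost the call, 10 gained it and 18 changed sign. The cause of these moves was not tested, apart from the number of genes tested or libraries used that the setting itself changes. For 24 h against sham over both arms (3 called), no filter gave 1, leaving out the 3 libraries with Ttr above 100 FPKM in it gave 0, and leaving out single libraries gave 2 to 4. Without the filter the adjusted p was 0.053 for Gpr17 and 0.0516 for C1ql1. In the control arm (3 called), no filter gave 0, leaving out R24h_C3 for its Ttr gave 1, and single libraries left out gave 0 to 4. In the Tiparp arm (0 called) the range was 0 to 2, with 2 without R24h_T3. For 28 d against sham (0 called) the range was 0 to 3, with 3 without R28d_T3, and in the Tiparp arm alone 0 to 2. For 28 d against 24 h (2 called), the pseudocount of 0.1 gave 1, no filter 0, all 18 libraries in 1 fit 4, leaving out the 2 libraries with high Ttr 0, and single libraries left out 0 to 4, with 4 without R24h_T3. Replicate numbers did not pair the libraries, since 4 of 45 same-numbered pairs had a correlation above 0.1 (range -0.42 to 0.21). With the replicate number as a block the count was 1 for 24 h in the control arm and 0 for 28 d against 24 h. Changes of sign were confined to uncalled differences near zero. Under median-ratio scaling Pdgfra was -0.067 at 24 h and -0.041 at 28 d against sham and 0.027 at 28 d against 24 h, while Gpr17 was -0.015 and Neu4 -0.027 at 28 d against sham. With single libraries left out at 28 d against sham, Pdgfra ran from -0.009 to 0.033, Cspg4 from -0.048 to 0.043, Olig2 from -0.003 to 0.169 and Neu4 from -0.025 to 0.048. At 28 d against 24 h, Sox10 ran from -0.211 to 0.105.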
